A study of Homo sapiens with 6 samples.

Results

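The family of miR-130, miR-301 and miR-454 is a group of human microRNAs whose 3p arms share the same bases at positions 2 to 8, the seed, by which a microRNA pairs with its target mRNAs. It was taken here as 7 named mature miRNAs: miR-130a-3p, miR-130b-3p, miR-301a-3p, miR-301b-3p and miR-454-3p, which carry the seed, and miR-130b-5p and miR-454-5p, the opposite arms of 2 of the precursors. Members were found by exact name in a table of 463 distinct mature sequences. Of the 7, 4 were listed (miR-130a-3p, miR-130b-3p, miR-130b-5p and miR-454-3p) and 3 were not (miR-301a-3p, miR-301b-3p and miR-454-5p).

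The cells were LX-2, a line of human liver stellate cells made immortal, and all had been exposed to TGF-β1, which turns stellate cells toward a collagen-producing state. The labels give 24 h of TGF-β1, and the study's methods give 10 ng/mL for 48 h. In the co-culture group HUC-MSCs, mesenchymal stem cells of human umbilical cord, were held above the LX-2 cells on a porous membrane for 48 h. For single culture this upper chamber was left empty. Each group had 3 small RNA libraries, made from the LX-2 layer of a single cell line. Nothing in the labels says whether these are separate cultures, so p-values measure only the spread between the libraries.

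Seed families work as a unit in the sense that members with the same seed can pair with the same sites in mRNA 3′ ends, and one member can act where another is scarce. The family is known for acting on the mRNA of PPARG, a nuclear receptor that holds stellate cells in a quiescent, fat-storing state, and in lung vessels it is known to promote matrix stiffening. In stellate cells miR-130a-3p has also been reported to act on mRNAs of TGF-β receptors. The comparison asks whether the family differed between activated stellate cells grown alone and those grown with HUC-MSCs.

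The seed-carrying members with a mature sequence in the RefSeq table of build GRCh38.p14 are shown to make the shared seed visible, with bases 2 to 8 in capitals. miR-130a-3p is named only.
miR-130b-3p: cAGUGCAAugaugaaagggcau
miR-301a-3p: cAGUGCAAuaguauugucaaagc
miR-301b-3p: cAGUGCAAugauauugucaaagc
miR-454-3p: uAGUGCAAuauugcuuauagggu

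Base 9 was also the same in these 4 members, so that bases 2 to 9 were identical in all 6 pairs. miR-301a-3p and miR-301b-3p were the closest pair, with 21 of 23 bases identical from the first base with no gap. miR-130b-3p and miR-454-3p were the most distant, with 10 of 22 bases identical. A seed match is therefore shared by all, while the 3′ portion tells the members apart.

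The precursors lie at 3 places in the genome (GRCh38). MIR130A is on chromosome 11 from 57641198 to 57641286 on the plus strand, in an intron of the noncoding gene AP000662.1. MIR301B (21652981 to 21653058) and MIR130B (21653304 to 21653385) lie on the plus strand of chromosome 22 with 245 bases between them, within the noncoding gene AP000553.1; MIR301B is in its intron and MIR130B overlaps one of its exons. MIR454 (59137758 to 59137872) and MIR301A (59151136 to 59151221) lie on the minus strand of chromosome 17, 13263 bases apart, both in introns of SKA2, which encodes a protein of the spindle and kinetochore complex.

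MIR130B gave the member with the most tags, and its hairpin of 82 nt (RefSeq, GRCh38.p14, chr22:21653304-21653385, plus strand) is shown with the 5p arm and then the 3p arm in capitals.
MIR130B: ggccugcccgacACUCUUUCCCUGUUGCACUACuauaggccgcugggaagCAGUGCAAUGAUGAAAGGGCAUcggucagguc
The 5p arms do not carry the family seed. In miR-130b-5p the capitals mark the 7 bases that are the reverse complement of it, and in miR-454-5p they mark bases 2 to 8.
miR-130b-5p: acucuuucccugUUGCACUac
miR-454-5p: aCCCUAUCaauauugucucugc

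Total tag counts were 43956 to 209043 in single culture and 325037 to 604418 in co-culture, and 233 to 349 and 320 to 372 of the 463 sequences were listed. The smallest count listed was 2, so a blank can stand for 0 or 1 tag. Levels are in CPM, the tag count relative to the library size, with library sizes scaled by TMM, a method that sets most miRNAs to no change. On this scale the listing limit of 2 tags stood at 6.58, 31.0 and 29.6 CPM for single culture libraries 1, 2 and 3, and at 7.75, 5.32 and 7.09 CPM for the same numbers of co-culture. A member at 10 CPM would therefore stay under 2 tags in libraries 2 and 3 of single culture. LX-2 cells were checked against markers. Of 7 miRNAs of mesenchymal and stellate cells 5 were listed (summed level 853 to 3051 CPM in single culture, 905 to 992 in co-culture; miR-199b-5p and miR-214-3p not listed). The defining markers miR-122-5p (hepatocyte), 5 of 5 of blood cells and 3 of 3 of muscle were not listed, and of the epithelial markers the miR-200 and miR-141 members and miR-429 were not listed, while miR-192-5p and miR-194-5p summed to 118 to 270 CPM in single culture and 284 to 322 in co-culture. Both endothelial markers were listed (124 to 174 and 186 to 255 CPM), and of the neuronal pair miR-9-5p (31.0 to 118 and 65.9 to 81.5 CPM).

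The family had few tags in these libraries. All sequences with the seed, the longer form of miR-454-3p described below included, came to 28 tags in 6 libraries, or 0.00169% of all tags. By tags this seed ranked 165th of 377 seeds, and the median seed had 19 tags. The miR-21 seed, at the top, had 1229774 tags. In single culture the seed had 11, 0 and 2 listed tags in libraries 1, 2 and 3, and in co-culture it had 0, 9 and 6. A library without a listed tag occurred in both groups, and the ranges overlapped.

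**Figure D1:**
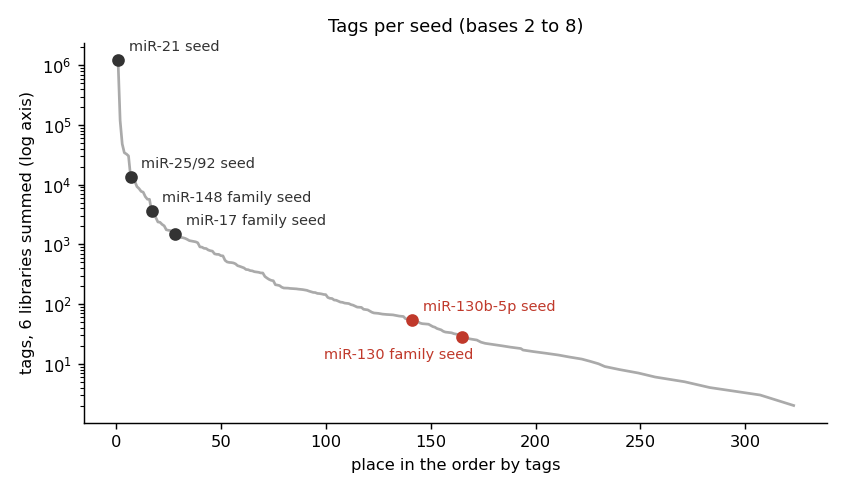
Tags summed over the 6 libraries (vertical, log axis) for each of 377 seeds in order of tags (horizontal; tied seeds share a place), with some seeds marked as points. The seed of the miR-130 family had 28 tags and the seed of miR-130b-5p 54, against 1229774 for the miR-21 seed and 3571 for that of the miR-148 family.

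miR-130a-3p was listed in 1 of 6 libraries. It had 2 tags in library 3 of single culture, which is 29.6 CPM there, and was blank in the other 5. This single listed value stood exactly at the listing limit of its library. Its level over all libraries, 1.48 CPM, would give 0.382 tags in co-culture library 1, so these counts are too few to show a difference between the groups.

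miR-130b-3p had 3 tags (9.87 CPM) in library 1 of single culture and was blank in libraries 2 and 3. In co-culture it was blank in library 1 and had 2 tags in each of libraries 2 and 3 (5.32 and 7.09 CPM). It was listed only in libraries where 2 tags equal 7.09 CPM or less. At its pooled level of 5.18 CPM, with blanks taken as 0, each of the 6 libraries would hold fewer than the 2 tags needed. The libraries that listed it would hold 1.57 (single culture 1), 1.95 and 1.46 tags (co-culture 2 and 3). Those where it was blank would hold fewer, with 0.334 and 0.350 (single culture 2 and 3) and 1.34 tags (co-culture 1).

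miR-454-3p followed the same listing. It had 4 tags (13.2 CPM) in library 1 of single culture and 2 tags in each of co-culture libraries 2 and 3 (5.32 and 7.09 CPM), and was blank elsewhere. miR-130b-3p and miR-454-3p come from different chromosomes and were listed in the same 3 libraries, which are among the 4 with the lowest listing limits.

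A further sequence of the table, called chr17_7624 by the authors, equals miR-454-3p plus 1 base after its last. It is shown because it carries the seed under another name, again with bases 2 to 8 in capitals.
chr17_7624: uAGUGCAAuauugcuuauaggguu
It had 4 tags in library 1 of single culture and 5 and 2 tags in co-culture libraries 2 and 3. Its 11 tags were more than the 8 tags of the annotated form, and it was listed in the same 3 libraries. Whether the added base was in the genome or was added to the RNA was not tested. Both forms start alike and differ at 1 end only, so tags of one could have been counted as the other.

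Of the opposite arms outside the 7 members, miR-130a-5p had 2 tags in library 1 of single culture and 2 in co-culture library 1, a library in which no seed-carrying member was listed. miR-301a-5p and miR-301b-5p were not listed. For miR-301a-3p, miR-301b-3p and miR-454-5p no library listed a tag, which at this depth is not evidence of absence.

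miR-130b-5p was the best covered member, with 54 tags and place 175 of 463 sequences. It had 14 and 5 tags (46.1 and 77.5 CPM) in single culture libraries 1 and 2 and was blank in library 3. In co-culture it had 7, 15 and 13 tags (27.1, 39.9 and 46.1 CPM). The highest and the lowest value both lay in single culture, and the co-culture range fell inside the range of single culture. At the level of the other 5 libraries, 42.1 CPM, library 3 of single culture would hold 2.84 tags.

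**Figure D2:**
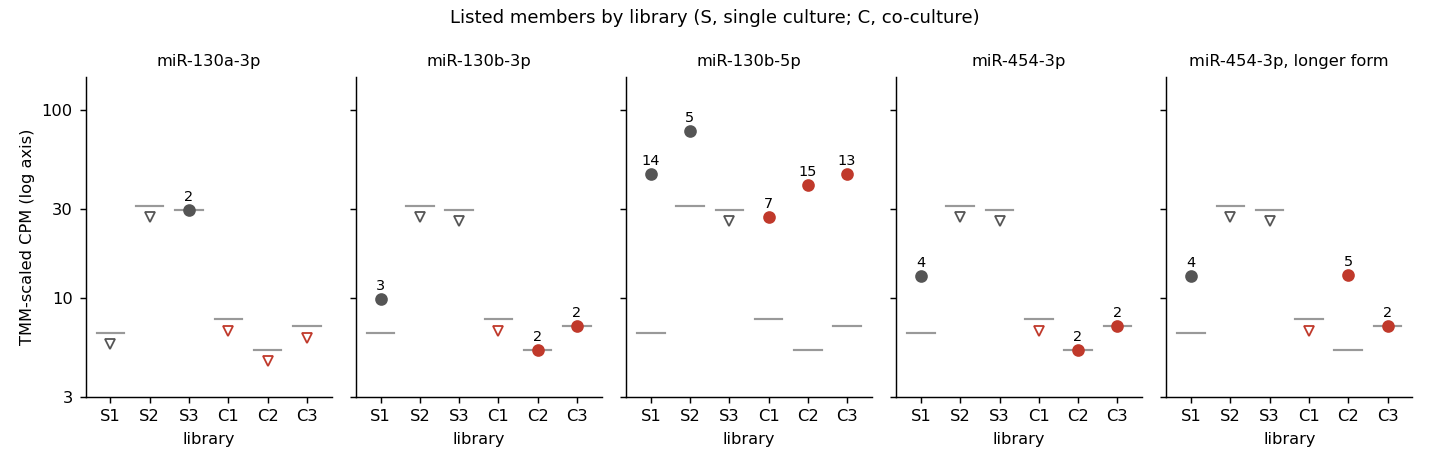
CPM (log axis) of the 4 listed members and the longer form of miR-454-3p in single culture libraries S1 to S3 (grey) and co-culture libraries C1 to C3 (red). Filled points are listed values with their tags, grey bars mark the CPM of 2 tags in that library, and open triangles under a bar are blanks (0 or 1 tag). Of the 5 sequences, miR-130b-5p alone was listed in 5 libraries.

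Tested with edgeR's quasi-likelihood method on 182 sequences with at least 10 tags in at least 3 libraries, 1 member of the family had enough tags. For miR-130b-5p the log2 fold change, co-culture against single culture, was -0.17 (SE 0.58, 95% interval -1.57 to 1.22), with an adjusted p of 0.882 in edgeR. With a blank taken as 0, single culture averaged 41.2 ± 39.0 CPM and co-culture 37.7 ± 9.68 CPM (SD, n = 3 each). So 0 of 1 tested members passed an adjusted p of 0.05, against 4.4% of all tested sequences (8 of 182, 4 higher and 4 lower, though 45 without library 1 of single culture and 0 without co-culture library 2 or 3), and its unadjusted p was 0.775. The interval spans a fall and a rise of more than 2-fold, so neither is excluded by these counts.

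The sign was not fixed by the data. On log2 CPM with a prior count of 2, the mean of co-culture was 0.40 higher, and an exact two-sided permutation test gave p = 0.9, where 3 libraries against 3 cannot go below 0.1. Leaving out each library in turn gave log2 fold changes from -0.47 (without library 3 of single culture, where it was blank) to 0.10 (without library 2 of single culture). Scaled to library size alone it was -1.25, on a scale where the median of all tested sequences moved from -0.041 to -1.11.

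**Figure D3:**
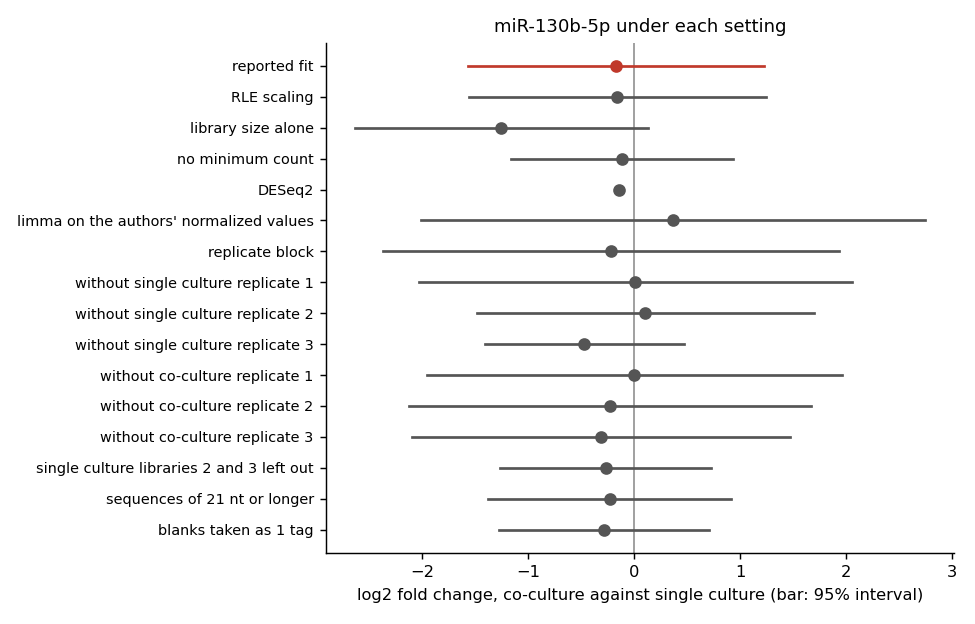
Log2 fold change of miR-130b-5p, co-culture against single culture, in the reported fit (red) and under 15 other settings (grey), with 95% intervals as bars (none for DESeq2). Each interval drawn includes 0, and the values run from -1.25 with library size alone to 0.37 with limma on the authors' normalized values.

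The 4 listed members had 71 tags together, of which 54 were miR-130b-5p, the arm without the seed, and in single culture library 2 and co-culture library 1 all were. Of all tags, these members took 0.0100%, 0.0114% and 0.00421% in single culture. In co-culture they took 0.00215%, 0.00314% and 0.00403%. For these 4 members the groups did not overlap on this scale, with means of 0.00854 ± 0.00381% and 0.00311 ± 0.000938% (SD, n = 3 each). The exact two-sided permutation p was 0.1, the smallest possible. The longer form of miR-454-3p was not counted here. The sequences with the seed, this form included, took 0.00526%, 0% and 0.00421% of all tags in single culture libraries 1, 2 and 3. They took 0%, 0.00149% and 0.00142% in those of co-culture, and these ranges overlapped. No test of the shares had been planned, and the share of all sequences without overlap on this scale is not given. A fall was common on the scale of all tags: with library size alone 139 of all 182 tested sequences passed lower in edgeR and 1 higher. The lowest single culture share, 0.00421% in library 3, rests on 2 tags of miR-130a-3p. With each blank taken as 1 tag the means were 0.0130% and 0.00355%. In this setting 1 tag weighs most in single culture libraries 2 and 3, which held 43956 and 47528 tags in total. The wider gap therefore follows from depth and says nothing about the family. The forms of miR-21-5p, a highly abundant miRNA, took 37.1% to 56.4% of the tags in single culture and 75.0% to 81.2% in co-culture. Without these forms in the total the family held 0.0230%, 0.0189% and 0.00669% in single culture. The co-culture libraries then had 0.00862%, 0.0167% and 0.0214%, the ranges overlapped, and the exact permutation p was 0.9. In libraries of the whole cell layer, fewer cells with a miRNA and less of it per cell cannot be told apart.

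Within the MIR130B hairpin shown above, the 5p arm outnumbered the 3p arm. Both arms were listed in 3 libraries, where the 5p arm took 14 of 17 tags in library 1 of single culture, 15 of 17 in co-culture library 2 and 13 of 15 in co-culture library 3. These are shares of 82.4% (95% exact binomial interval 56.6% to 96.2%), 88.2% (63.6% to 98.5%) and 86.7% (59.5% to 98.3%), and all 3 intervals overlap. Summed over the 6 libraries it took 54 of 61 tags, or 88.5% (exact interval 77.8% to 95.3%, for counting error only), and 84.4% with each blank of the 3p arm taken as 1 tag. The arm with fewer tags is therefore the one that carries the family seed.

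For miR-130a the 5p arm had 4 tags and the 3p arm 2, a share of 66.7% with an exact interval of 22.3% to 95.7%. For miR-454 the 3p arm was the listed one. Of 65 precursors with both arms in the table, 33 had more tags from the 5p arm and 32 from the 3p arm, and miR-130b ranked 19th by the 5p share.

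**Figure D4:**
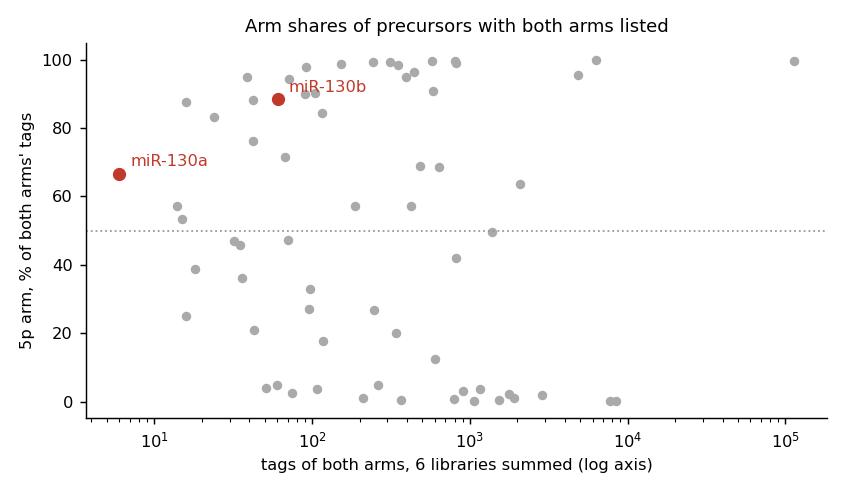
Share of the 5p arm in percent (vertical) against the tags of both arms summed over 6 libraries (horizontal, log axis) for 65 precursors with both arms listed. miR-130b stands at 88.5% of 61 tags and miR-130a at 66.7% of 6 tags (both red); the dotted line marks equal arms.

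The family's seed shares a core with better covered families, which bear on what else could pair with related sites. In miR-148a-3p the first 6 bases of the seed stand 1 base further in, at bases 3 to 8, and in miR-17-5p its first 5 bases stand at bases 4 to 8 (capitals; RefSeq, GRCh38.p14).
miR-148a-3p: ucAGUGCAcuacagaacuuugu
miR-17-5p: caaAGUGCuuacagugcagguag
Of 9 such relatives 7 were listed and tested, and miR-20b-5p and miR-106a-5p were not listed. The seed of the miR-148 family had 3571 tags and ranked 17th, and the seed of miR-17, miR-20a, miR-93 and miR-106b had 1496 tags and ranked 28th.

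None of the 7 relatives passed the adjusted p in edgeR, 0 higher and 0 lower, against 4.4% of all tested sequences. All 7 log2 fold changes were below 0, from -0.35 to -0.10 with a median of -0.29. Of all 182 tested sequences 99 were below 0, with a median of -0.041. miR-152-3p, which in stellate cells is reported to restrain activation, had single culture levels of 741, 775 and 711 CPM and co-culture levels of 608, 642 and 571 CPM. Its groups did not overlap, as was so for 35.7% of the tested sequences, and the log2 fold change was -0.29 (SE 0.11, adjusted p = 0.155 in edgeR).

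miR-93-5p, of the miR-106b cluster, had single culture levels of 523, 465 and 444 CPM and co-culture levels of 318, 429 and 390 CPM, also without overlap, with a log2 fold change of -0.35 (95% interval -0.72 to 0.019, adjusted p = 0.212 in edgeR). miR-20a-5p, of the proliferation-linked miR-17-92 cluster, had a log2 fold change of -0.26 (adjusted p = 0.400 in edgeR). For miR-106b-5p it was -0.33 (95% interval -1.52 to 0.86), and for miR-17-5p -0.10 (-0.74 to 0.55). These last 2 changed sign when 1 library was left out, up to 0.090 for miR-106b-5p without library 2 of single culture and up to 0.059 for miR-17-5p without co-culture library 2. Scaled to library size alone, all 7 were lower and passed (from -1.43 to -1.16), as did 76.9% of all tested sequences (139 lower and 1 higher).

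**Figure D5:**
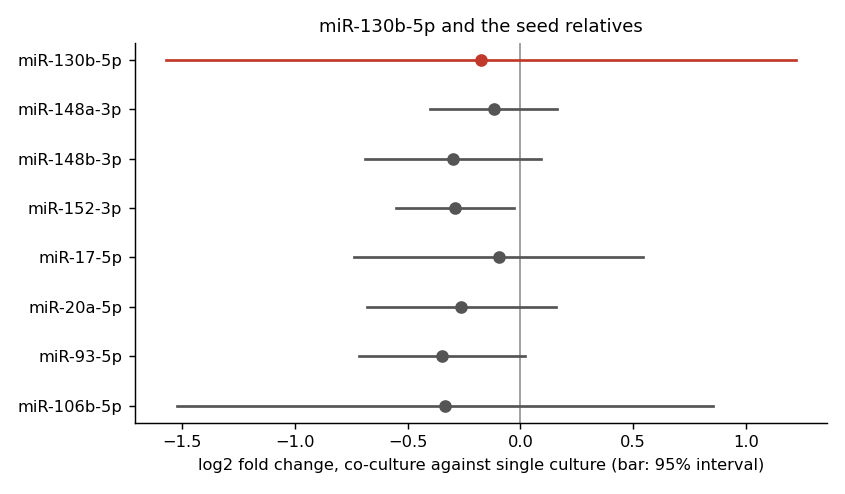
Log2 fold change, co-culture against single culture, with 95% intervals for miR-130b-5p (red) and the 7 tested relatives (grey). The interval of miR-130b-5p, -1.57 to 1.22, is wider than that of each relative, and none of the 8 passed the adjusted p.

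The members were also set among miRNAs reported to act on the same mRNAs. Of 6 miRNAs reported to repress PPARG, 5 were listed and 2 tested, neither of them a family member, and 0 passed, where 4.4% of all tested sequences did. These were miR-27b-3p, at 7699 ± 284 CPM without HUC-MSCs and 5429 ± 128 with them (SD, n = 3 each; log2 fold change -0.50, adjusted p = 0.0502 in edgeR), and miR-27a-3p (-0.39, adjusted p = 0.422). miR-27b-3p lay at the threshold and passed in 8 of 16 alternatives (adjusted p 0.00122 to 0.288). In tags the list was almost wholly miR-27b-3p, with 8417 of 8635. Of 9 reported to repress TGFBR2, a TGF-β receptor, 8 were listed and 5 tested, 1 passed higher (miR-21-5p, log2 fold change 1.39, adjusted p = 0.0176 in edgeR) and 0 lower, with a median of -0.26, against the same 4.4%. The value of 1.39 is that of the annotated miR-21-5p sequence alone, with 112585 tags. The miR-21 seed had 1229774 tags, and its leading sequence was the longer form, called chr17_6906 by the authors, which is not in this list. The call of miR-21-5p was lost in 7 of 16 alternatives, among them leaving out single culture library 2 or 3 or co-culture library 2 or 3 (adjusted p up to 0.114 in edgeR) and library size alone (log2 fold change 0.32). The family's seed-carrying members in these lists had at most 4 tags in any library and could not be tested.

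The 5 tested sequences with the profile nearest to miR-130b-5p over the 6 libraries were miR-193b-3p, miR-22-5p, miR-34a-5p, miR-542-3p and miR-382-3p. Their root mean square difference from it in centred log2 CPM was 0.28 to 0.51, where the median over all tested sequences was 1.07. They share its depth, with 47 to 80 tags in all, and were blank, like it, in library 3 of single culture, a likeness that the choice by profile largely fixes. None of the 5 passed the test (adjusted p of 0.322 to 0.978 in edgeR).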

How the data were processed

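Small RNA of LX-2 cells was sequenced on an Illumina platform; the submitters' notes name Bowtie 0.12.2 and the builds hg18 and mm8 without a role. Raw counts of tags were deposited for each miRNA with the authors' normalized values, a score of unstated scale; the authors' fold change and p-value columns were not used. Columns carry numbers that fit no sample's title, and were given a group because the authors' named mean columns equal the means over these columns in 520 of 520 rows and over the other group's in 14 (tolerance 1e-04). There were 0 columns without a group. The 520 rows were merged into 463 distinct sequences, and blanks were taken as 0.

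edgeR 4.0.16 (R 4.3.3; TMM, at least 10 tags in 3 libraries, quasi-likelihood test, Benjamini-Hochberg adjustment over 182 sequences) compared the groups. DESeq2 1.42.0 and limma 3.58.1 served as alternatives, with RLE scaling, library size alone, other minimums, a replicate block, sequences of 21 nt or longer and libraries left out. Taking blanks as 1 tag was added after seeing the data. No libraries of a group were duplicates (chi-square per degree of freedom 3.46 to 144).

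Named were the members, sequences that share the seed or contain a member, relatives with a shifted seed, lists of miRNAs reported to repress PPARG and TGFBR2 (a further list is not reported here), cell type markers, and the 5 nearest profiles to miR-130b-5p, which took the place of miR-130a-3p because the latter was not tested. The members and lists were chosen with earlier results of these data known. Sequences come from RefSeq (GRCh38.p14) and loci from GENCODE on GRCh38, not from the authors' builds. Libraries held 43956 to 604418 tags, which limits the precision together with a spread between libraries beyond counting error.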

Additional observations from a re-analysis of the deposited data

How the results depend on the processing

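Over all sequences, 8 passed an adjusted p of 0.05 in edgeR. The count was 140 with library size alone, 37 with no minimum, 21 with a minimum of 50 tags and also 21 with DESeq2, 18 with limma on the normalized values, and 0 to 45 when single libraries were left out. With a replicate block it was 0. The labels do not say whether same-numbered libraries are pairs. Their deviations from the group means correlated at -0.36, -0.11 and -0.21, and none correlated best with its own number. With 3 libraries in each group this cannot show that they were unpaired. For miR-130b-5p the block gave a log2 fold change of -0.22. Of 15 alternatives for this member 0 passed, 11 were negative and 4 positive (adjusted p 0.0817 to 0.998); limma gave 0.37, and leaving out single libraries gave -0.47 to 0.10. It had no value with a minimum of 50 tags. Over the libraries left out in turn, miR-17-5p ran from -0.32 to 0.059 and miR-106b-5p from -0.68 to 0.090. Among the relatives, all 7 passed with library size alone, and 1 of 104 other alternative fits passed (miR-152-3p at a minimum of 50 tags, log2 fold change -0.36, adjusted p = 0.0478 in edgeR). Without the miR-21-5p forms the family's mean share was 0.0162% in single culture and 0.0156% in co-culture. With all tags in the total and blanks taken as 1 tag it was 0.0130% and 0.00355%, where 1 tag weighs most in the small single culture libraries. With library size alone, limma, and single culture libraries 2 and 3 left out, miR-25-3p turned to -0.95, -0.26 and -0.0098 and miR-92a-3p to -0.997, -0.31 and -0.026. miR-92a-3p also turned to -0.011 with a minimum of 50 tags and -0.040 with sequences of 21 nt or longer. With the replicate block miR-21-5p had an adjusted p of 0.211 in edgeR. The causes of these changes were not tested.

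Depth limits the seed-carrying members most. With no minimum count, edgeR gave adjusted p of 0.612 for miR-130a-3p, 0.921 for miR-130b-3p, 0.838 for miR-454-3p and 0.979 for the longer form of miR-454-3p, from 2 to 11 tags each.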

Other observations

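The reverse complement of the family seed, marked in miR-130b-5p, also stood in 3 other sequences of the table, miR-25-3p, miR-92a-3p and miR-92b-3p, which share a seed of their own. They were looked at after their sequences were seen. In miR-25-3p it stands at bases 3 to 9 (capitals; RefSeq, GRCh38.p14).
miR-25-3p: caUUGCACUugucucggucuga
These were far more abundant than any member of the family. miR-25-3p averaged 7562 ± 584 CPM without HUC-MSCs and 8179 ± 353 with them (SD, n = 3 each), and its log2 fold change was 0.11 (SE 0.12, adjusted p = 0.585 in edgeR). miR-92a-3p had 1898 tags and a log2 fold change of 0.058, and miR-92b-3p had 506 tags and one of -0.34 (adjusted p = 0.205 in edgeR). None of the 3 passed the test in the reported fit. Scaled to library size alone, miR-25-3p (-0.95) and miR-92a-3p (-0.997) changed sign, and miR-92b-3p stood at -1.41. All 3 then passed lower (adjusted p of 0.00366, 0.00316 and 0.00157 in edgeR), as did 139 of the 182 tested sequences.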
